A study of Oreochromis niloticus with 16 samples.

Results

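Of the 174 Nile tilapia mature miRNA names that begin with miR-n, 48 reached their highest level in an adult tissue, and these 48 are described here. The n in a name marks the miRNAs that the study did not assign to a family known from other animals. A name was kept when it had at least 10 reads in at least 1 library and when its highest level over 16 libraries fell in an adult library. A further 76 n-named miRNAs with that many reads were highest in an embryo or larva library, and the others had fewer reads. The deposited tables hold 577 names in all. The 48 were chosen by these values, so their peak tissues and their adult levels relative to the stages are given as description, without a test.

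The small RNA libraries came from Chitralada strain fish, 1 library for each condition. Whole animals were sampled at 2, 3, 4, 5 and 10 days post-fertilization (dpf), the first 4 as embryos up to hatching and the last as larvae. The adults, 6 months old by the methods, although a different age is given elsewhere for the male white muscle fish, gave female and male white muscle, female and male red muscle, female and male brain, ovary, testis, female heart, and liver and eye of mixed sex. The sources used here name no treatment or genotype difference, and they do not say how many fish went into a library or which libraries share a fish.

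MicroRNAs are short RNAs cut from the 2 arms of a hairpin precursor, and the arm of origin is written as 5p or 3p. In most hairpins 1 arm is loaded into an Argonaute protein and accumulates, while the partner is degraded. The loaded arm guides the protein to messenger RNAs that pair with it, mainly through the bases near its start. Many conserved miRNAs mark a tissue, such as miR-122 in liver, miR-124 in neurons and miR-1, miR-133 and miR-206 in muscle. No role is stated for any n-named miRNA in the sources used here, so the groups below are ordered by tissue.

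Levels are given as CPM, the reads of a miRNA per 1000000 miRNA reads of its library, where a read that matched several precursors was divided among them. Divided totals ran from 833147 to 11517367 reads per library with a median of 2848730. The floor set for a count of 0, 3 reads, therefore corresponds to between 0.260 CPM in male red muscle and 3.60 CPM at 10 dpf. A fold against this floor leaves out the counting error of the higher side and is no 95% limit. Intervals on single libraries are 95% Poisson intervals for levels and 95% Wilson intervals for shares. They cover counting error only, since the reads carry no molecular identifiers and a condition has no second library other than the opposite sex. Among the fixed tissue markers, miR-122-5p reached 450152 CPM in liver, miR-1-3p 128719 and 171908 CPM in white muscle, miR-124a-3p 30369 (female) and 14668 CPM (male) in brain, miR-499-5p 42309 CPM in heart and miR-183-5p 550491 CPM in eye. Not every marker was highest in its own tissue in every library. In red muscle miR-1-3p was at only 1405 CPM (female) and 189 CPM (male), below ovary (2523 CPM) and testis (3134 CPM). The muscle marker miR-206-3p was at 4292 and 3780 CPM there, and miR-133a-3p at 21279 and 24254 CPM. In eye miR-124a-3p stood at 15998 CPM, above male brain, miR-9-5p-2 was higher at 3 dpf (34167 CPM) than in brain (28325 and 26205 CPM), and miR-192-5p was at 40749 CPM at 5 dpf and 40683 CPM in liver. The gonad miRNA miR-202-5p was at 775 CPM in ovary and 11961 CPM in testis.

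The 48 miRNAs were rare. Together they held 0.0906% of all divided reads, which was 48.4% of the reads of all n-named miRNAs. Their share was 1.05% of the reads in liver, 0.491% in ovary, 0.183% in male brain and 0.0649% in female brain, against 0.00726% in heart and 0.00803% in eye. The median of the highest level was 23.4 CPM, from 1.97 CPM for miR-n012-3p in female brain to 10089 CPM for miR-n692-5p in liver. Of the 48, 10 peaked at 100 CPM or more, 23 between 10 and 100 CPM and 15 below 10 CPM. Among the 171 conserved names that peaked in an adult library with the same minimum of reads, the median peak was 1000 CPM.

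The peaks were spread unevenly over the 8 adult tissues. Brain held 12 (11 in the male and 1 in the female library), ovary 11, red muscle 9 (7 male and 2 female), liver 8, testis 5 and white muscle 3, and heart and eye held none. Ovary took 22.9% of the n-named peaks and 7.60% of the 171 conserved ones, while eye took 0% and 8.77%. With library totals scaled by edgeR's TMM factors, which set the bulk of the names level between libraries, 63 n-named miRNAs met the rule, of which brain held 22, ovary 10 and eye 4. In such tissue samples, fewer cells of a type and less of a miRNA per cell cannot be told apart. These are shares of names from single libraries, and the ovary library was among the shallowest. The specificity index tau is 0 when a miRNA is equally high in all 8 adult tissues and 1 when it is found in a single tissue. Its median was 0.951 over the 48, against 0.904 for the 171 conserved names and 0.847 for the 76 n-named miRNAs that peaked in a stage. Tau rises where low levels give counts of 0, and the median peak was 23.4 CPM over the 48 and 1000 CPM over the conserved names. The 48 and the 76 were also separated by the rule itself. The medians are therefore description and do not rank the classes by specificity.

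**Figure D1:**
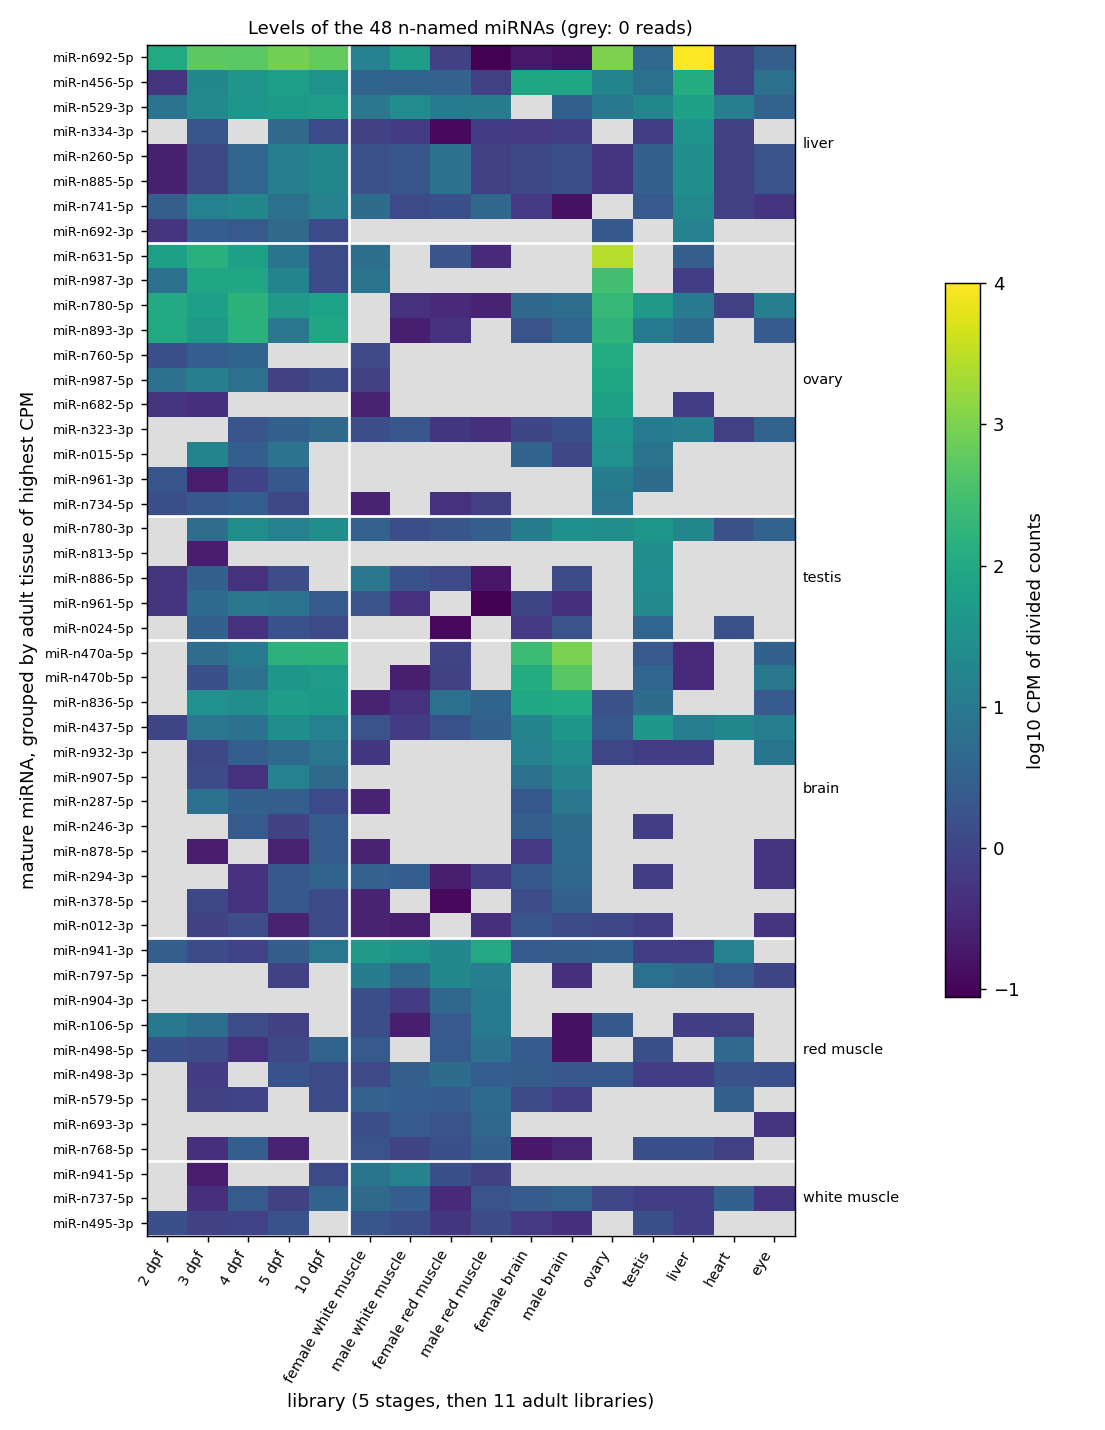
Level of each of the 48 miRNAs (rows, grouped by the adult tissue of the highest level) in each of the 16 libraries (columns, the 5 stages left of the white line), as log10 CPM of divided counts, with grey for 0 reads. The brightest cell is miR-n692-5p in liver at 10089 CPM, the ovary group has reads at 2 to 4 dpf, and the brain group has its stage reads mainly at 5 and 10 dpf.

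How far the adult peak stood above the stages varied widely. The ratio of the best adult to the best stage level had a median of 2.15, was at least 2 in 26 of the 48 and at least 5 in 17. In 23 of the 48 the counting interval of the peak overlapped that of the best stage. Among the 171 conserved names that peaked in an adult library, the median ratio was 2.98. It was at least 2 in 122 of these and at least 5 in 56, and the intervals overlapped in 23. The conserved peaks rested on more reads, with a median of 3442 against 56.5, which narrows their counting intervals. For miR-n904-3p and miR-n693-3p all 5 stages were at 0 reads. In 3 cases the peak rested on fewer than 10 reads, namely miR-n734-5p with 8 in ovary, miR-n495-3p with 7 in female white muscle and miR-n024-5p with 5 in testis. These passed the minimum through a deeper library with a lower level. At the edge of the rule, miR-n106-5p was 1.05 times as high in male red muscle as at 2 dpf and was kept, while miR-n907-3p in male brain was 0.984 times its level at 10 dpf and was not. The next inside were miR-n741-5p at 1.10 and miR-n907-5p at 1.12, and the next outside miR-n246-5p at 0.977 and miR-n903-3p at 0.922. At the minimum of reads, miR-n012-3p and miR-n734-5p had 10 and miR-n961-3p 11, while miR-n904-5p and miR-n487-5p had 9 and miR-n797-3p 7.

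**Figure D2:**
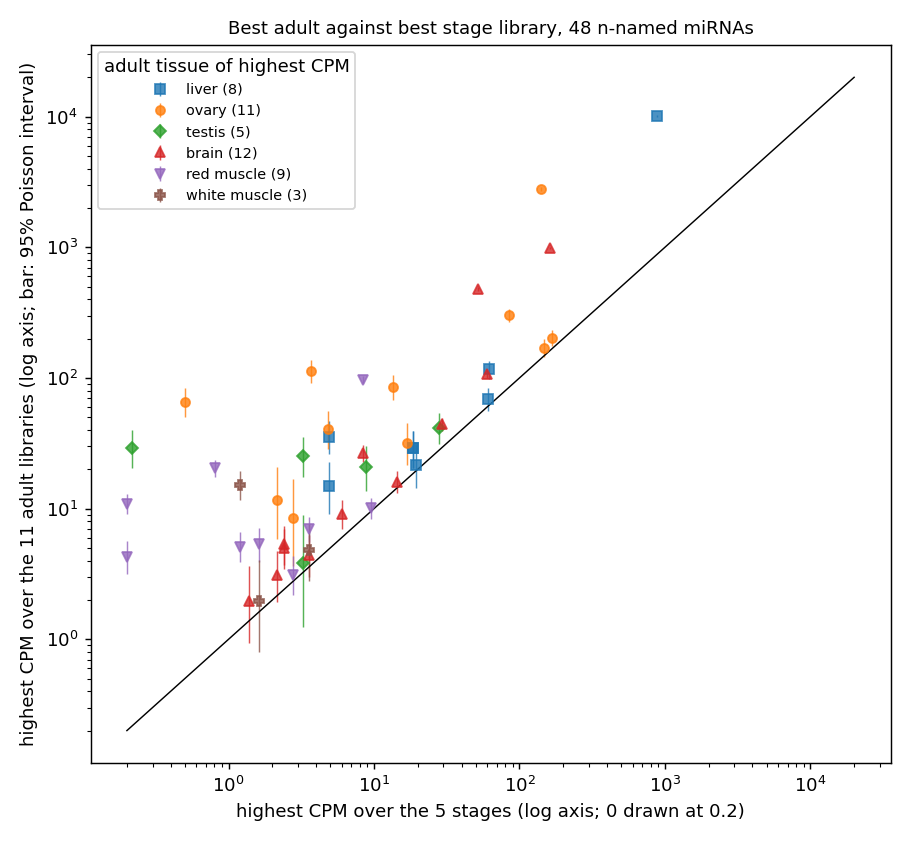
Highest CPM over the 11 adult libraries (vertical log axis, bars for the 95% Poisson interval) against the highest CPM over the 5 stages (horizontal log axis) for the 48 miRNAs, coloured by tissue. By the rule every point lies above the line of equality, and 23 of the 48 have intervals that overlap those of the best stage.

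The liver group was dominated by miR-n692-5p, the most abundant of the 48. It stood at 10089 CPM in liver (13621 reads, interval 9920 to 10260) and at 1001 CPM in ovary. At 2, 3, 4, 5 and 10 dpf it was at 104, 523, 508, 881 and 619 CPM. Female white muscle held 15.5 CPM, the male counterpart 58.6 CPM and testis 4.59 CPM. Red muscle, brain, heart and eye each held 2.99 CPM or less, on 7 reads or fewer in each of these libraries. All 16 libraries had reads, and the level in liver exceeded that in every other library by 10.1-fold or more.

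Over the 16 libraries the 480 names compared with miR-n692-5p were ranked by Spearman correlation, as a description. The 3 most alike were miR-122-5p with 0.932, miR-192-5p with 0.879 and its own partner arm miR-n692-3p with 0.872. miR-122-5p and miR-192-5p are conserved miRNAs of liver, and all points share the same library totals. miR-n692-5p and miR-122-5p were in different ratios in different libraries. For every 1000 reads of miR-122-5p there were 22.4 of miR-n692-5p in liver, 149 at 5 dpf, 143 at 10 dpf and 302 in ovary. In white muscle the ratio was 545 (female) and 629 (male), at much lower levels. The ovary library also held 3317 CPM of miR-122-5p and 9457 CPM of the eye miRNA miR-183-5p, and the part of these in its miR-n692-5p level was not tested.

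The other 7 liver miRNAs were far lower. miR-n456-5p was at 116 CPM in liver (interval 98.8 to 136), followed by female brain with 85.4 CPM (77.6 to 93.8) and male brain with 80.8 CPM. miR-n529-3p was at 68.9 CPM in liver and 61.2 CPM at 10 dpf, with intervals that overlapped. miR-n334-3p was at 35.6 CPM in liver and at most 4.88 CPM elsewhere, and of these 7 it stood farthest above its next library. miR-n741-5p was at 21.5 CPM in liver and 19.5 CPM at 4 dpf. miR-n692-3p, the minor arm of the leading hairpin, was at 14.8 CPM in liver on 20 reads. miR-n260-5p and miR-n885-5p, with 2 loci each, had identical counts in all 16 libraries. Their 28.9 CPM in liver came from the same 78 whole reads divided over 4 loci, so these names are 1 measurement. Both are nevertheless kept in the counts of names, hairpins and tests given here.

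The ovary group was led by miR-n631-5p. It was at 2809 CPM in ovary (2646 reads, interval 2703 to 2919) and at 0 reads in testis, and with the testis library at its floor of 3 counts the ovary was at least 1225-fold higher. Its levels at 2, 3, 4, 5 and 10 dpf were 66.9, 142, 65.4, 8.13 and 1.20 CPM. Female white muscle held 5.93 CPM, male white muscle 0, red muscle 1.86 CPM (female) and 0.347 CPM (male), and liver 2.96 CPM. Both brain libraries, heart and eye held 0 reads. The stages thus held it at 2 to 4 dpf and little of it afterwards, and ovary held 90.5% of its CPM summed over the 16 libraries.

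A further 4 of the ovary group were at 0 reads in testis. miR-n987-3p was at 303 CPM in ovary, with 84.3 CPM at 3 dpf and 80.7 CPM at 4 dpf, and its partner miR-n987-5p was at 84.9 CPM in ovary and 13.4 CPM at 3 dpf. miR-n760-5p was at 113 CPM in ovary and at most 3.71 CPM elsewhere, and miR-n682-5p was at 65.8 CPM on 62 reads with 5 reads in all other libraries together. Against the floor of 3 counts in the testis library the ovary was at least 132-fold, 37.0-fold, 49.1-fold and 28.7-fold higher for these 4, in that order. They, too, are comparisons of 1 library with 1 library.

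The remaining 6 ovary miRNAs also had reads in testis, apart from miR-n734-5p. miR-n780-5p was at 203 CPM in ovary and 46.6 CPM in testis, a ratio of 4.35 with a counting interval of 3.24 to 5.90, and miR-n893-3p was at 169 and 10.7 CPM, a ratio of 15.8 (9.13 to 29.5). For both, the level at 4 dpf (167 and 147 CPM) had an interval that overlapped that of ovary. miR-n323-3p was at 40.3 CPM in ovary and 10.7 CPM in testis, and miR-n015-5p at 31.9 and 7.64 CPM. miR-n961-3p was at 11.7 and 5.35 CPM, with a ratio whose interval (0.773 to 6.64) included equality. miR-n734-5p was at 8.49 CPM in ovary. Summed over the 11 miRNAs, the group stood at 299, 370, 478, 94.8 and 170 CPM at 2, 3, 4, 5 and 10 dpf, and 8 of the 11 had their best stage at 3 or 4 dpf.

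The 5 testis miRNAs peaked at 41.3 CPM or less. miR-n780-3p, the partner of miR-n780-5p, was at 41.3 CPM in testis, with an interval of 31.0 to 53.9 that overlapped the 30.6 CPM of male brain (26.5 to 35.0), and at 27.6 CPM in ovary. miR-n813-5p, with 2 loci, was at 29.1 CPM in testis on 38 divided reads, and its only other read was at 3 dpf. Of the 48, it was the miRNA with the largest part of its summed CPM, 99.3%, in its peak library. miR-n886-5p was at 25.2 CPM in testis and 9.03 CPM in female white muscle, and miR-n961-5p at 20.6 CPM in testis and 8.81 CPM at 4 dpf. These last 3 had 0 reads in ovary, and with that library at its floor of 3 counts the testis was 9.12-fold, 7.92-fold and 6.48-fold higher. miR-n024-5p, with 2 loci, was at 3.82 CPM in testis and 3.25 CPM at 3 dpf.

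**Figure D3:**
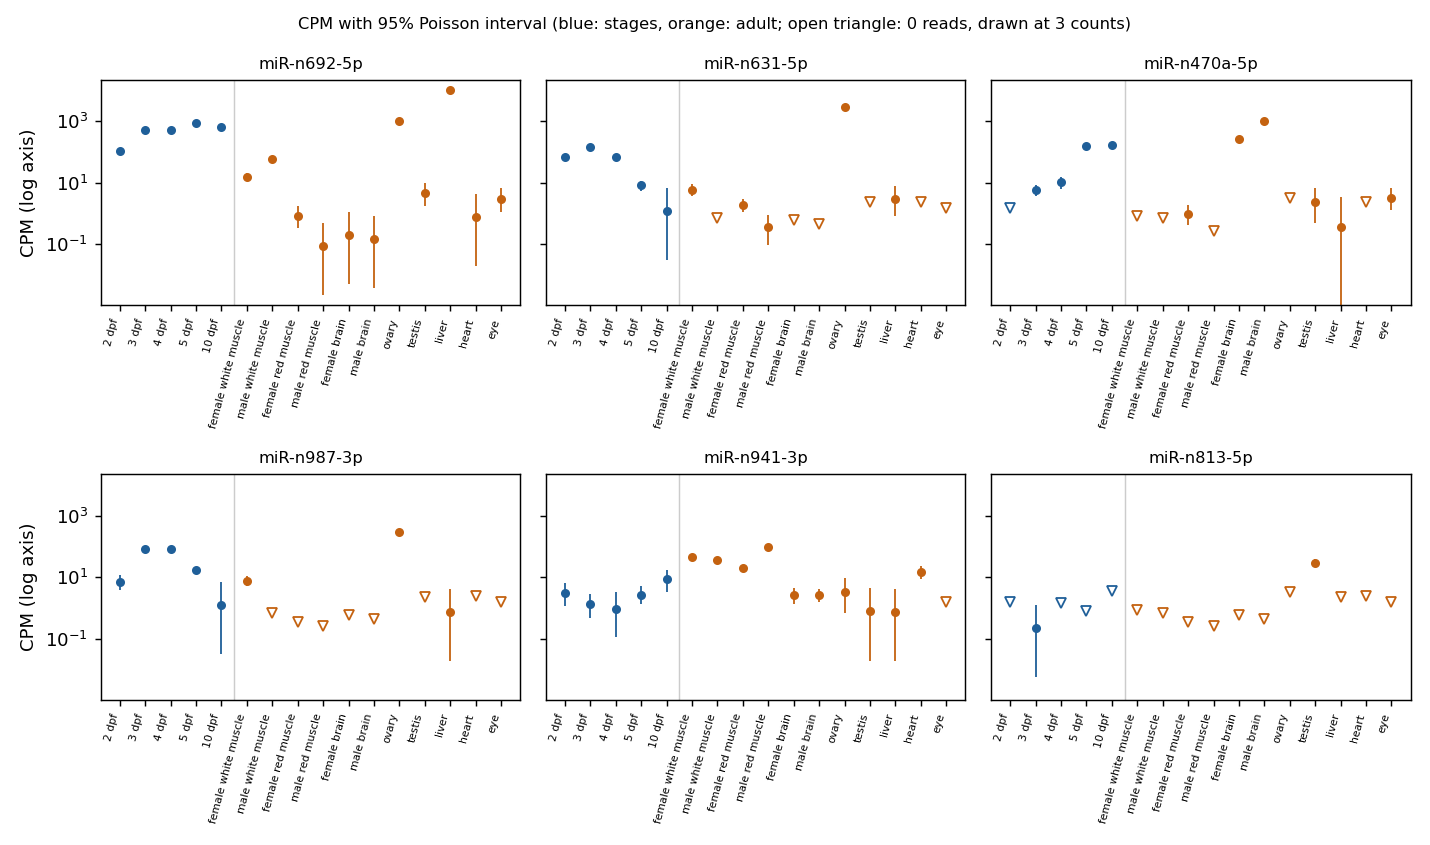
CPM on a log axis with 95% Poisson intervals in the 16 libraries for miR-n692-5p, miR-n631-5p, miR-n470a-5p, miR-n987-3p, miR-n941-3p and miR-n813-5p (blue for stages, orange for adult tissues, open triangles for 0 reads drawn at 3 counts). miR-n692-5p has points in all 16 libraries, while miR-n813-5p has reads only in testis, at 29.1 CPM, and 1 read at 3 dpf.

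The brain group was led by 2 names that share reads. miR-n470a-5p was at 986 CPM in male brain (interval 963 to 1010) and 261 CPM in female brain (247 to 275). At 2 dpf it had 0 reads, and the later stages held 5.63, 10.2, 155 and 163 CPM in order of age. Eye held 3.24 CPM and testis 2.29 CPM, and no other adult library held more than 0.929 CPM. In eye the conserved neuronal miRNA miR-124a-3p reached 15998 CPM. For every 1000 of its reads there were 67.2 of miR-n470a-5p in male brain, 8.59 in female brain and 0.203 in eye.

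miR-n470b-5p had the same order of libraries at the top, with 477 CPM in the male and 117 CPM in the female brain library, 52.2 CPM at 10 dpf and 40.9 CPM at 5 dpf. In eye it was at 9.23 CPM and thus above miR-n470a-5p. The 2 names were each counted with reads that matched both. In male brain 3268 whole reads were common to them, 39.3% of those of miR-n470a-5p and 67.2% of those of miR-n470b-5p, which left 5046 and 1596 reads of their own. In female brain 597 were common, with 1027 and 294 of their own. Without the common reads the male brain still held more of each than the female brain.

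Of the other 10 brain miRNAs, miR-n836-5p was at 107 CPM in male and 96.7 CPM in female brain, with 60.3 CPM at 5 dpf and 6.10 CPM or less in all other adult libraries. miR-n437-5p was at 44.1 CPM in male brain and 42.8 CPM in testis, which overlapped, and at 16.9 CPM in female brain. It had reads in all 16 libraries. miR-n932-3p was at 26.4 and 14.6 CPM in male and female brain, miR-n907-5p at 16.1 and 6.49 CPM, miR-n287-5p, with 3 loci, at 9.15 and 2.16 CPM and miR-n246-3p at 5.32 and 2.95 CPM. miR-n907-5p had 0 reads in the other 9 adult libraries, with 14.4 CPM at 5 dpf. The last 4, miR-n878-5p, miR-n294-3p, miR-n378-5p and miR-n012-3p, peaked between 1.97 and 5.02 CPM. The 12 together stood at 1.01, 57.2, 62.9, 313 and 304 CPM over the stages from 2 to 10 dpf, and 10 of them had their best stage at 5 or 10 dpf. For miR-n246-3p, miR-n878-5p and miR-n294-3p this was 10 dpf, the shallowest library, on 2, 2 and 3 reads. These levels are no higher than the 3.60 CPM that 3 reads give there.

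The muscle group was led by miR-n941-3p, at 96.9 CPM in male red muscle, 19.5 CPM in female red muscle, 45.7 CPM in female white muscle and 36.4 CPM in male white muscle. Heart held 14.8 CPM and no other library more than 8.40 CPM. Its partner miR-n941-5p was highest in white muscle, with 15.2 CPM (male) and 7.91 CPM (female), against 1.51 CPM (female) and 0.868 CPM (male) in red muscle. The highest library of the 2 arms was thus in different muscles, for the 3p arm through male red muscle alone. In the female libraries both arms were higher in white muscle. Red against white muscle did not pass for miR-n941-3p, with a log2 fold change of 0.87 ± 0.91 (adjusted p = 0.633 by edgeR's quasi-likelihood test).

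Values for the next 3 are in the order female red, male red, female white and male white muscle. miR-n797-5p was at 20.4, 12.7, 12.1 and 4.20 CPM, with 3 reads in the 5 stages together. miR-n904-3p was at 4.41, 10.9, 1.41 and 0.700 CPM and had reads in no other library. miR-n693-3p was at 1.74, 4.25, 1.41 and 2.33 CPM, with 1 read in eye and none elsewhere. For miR-n797-5p and miR-n904-3p both red muscle libraries were above both white ones, while for miR-n693-3p they overlapped. The counting intervals of miR-n797-5p in male red (10.7 to 14.9 CPM) and female white muscle (8.79 to 16.4 CPM) overlapped. Red against white muscle passed for none of these 3. By edgeR's quasi-likelihood test the log2 fold changes were 1.1 ± 0.9 for miR-n797-5p (adjusted p = 0.495), 3.1 ± 1.1 for miR-n904-3p (0.0958) and 0.9 ± 1.0 for miR-n693-3p (0.646). miR-n106-5p was at 10.1 CPM in male red muscle and 2.21 CPM in the female, with 9.56 CPM at 2 dpf. miR-n498-5p, miR-n498-3p, miR-n579-5p and miR-n768-5p peaked between 3.13 and 6.95 CPM in red muscle, and miR-n737-5p and miR-n495-3p at 4.80 and 1.98 CPM in female white muscle. Heart, the other striated muscle sampled, held no peak.

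Brain could be tested against skeletal muscle, since white muscle, red muscle and brain each had 2 libraries, 1 of each sex. edgeR's quasi-likelihood test was run on the whole-number counts of these 6 libraries, with Benjamini-Hochberg adjustment over all entries tested and adjusted p under 0.05 as the threshold. Of the 48 miRNAs, 30 had enough reads to be tested (10 or more in at least 2 of the 6 libraries), and 11 of them were higher in brain and 12 lower, while 7 did not pass. Over all 365 names tested, 30.1% were higher and 33.2% lower. Of the 310 conserved names tested, 91 were higher and 107 lower. The median log2 fold change of the 30 was -1.43, against -0.24 over all names. Of the 23 called, 18 reached the minimum of reads through the higher side alone, with fewer than 2 libraries at 10 reads on the other side. Entry in this way favours a difference, so these counts and the median are description and support nothing. It does not force a call, since miR-n886-5p reached 10 reads in muscle libraries only and did not pass (adjusted p = 0.182 by the same test). The p-values measure the spread between libraries of the 2 sexes within a tissue. Without the female brain library the counts among the 48 were 5 higher and 6 lower, and without the male brain 4 and 5, with 24 tested in each case. Without female white muscle 7 were lower.

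Of the 48, 24 were kept because of their level in brain or skeletal muscle, so their direction in this comparison is in part fixed by the rule and is given as description. Of the 20 of these that were tested, 8 were higher in brain and 8 lower. The largest log2 fold change was 12.43 ± 1.26 (standard error) for miR-n470a-5p, with an adjusted p of 5.32e-06 by edgeR's quasi-likelihood test. The next was 10.18 ± 1.12 for miR-n470b-5p. Reads common to both names were counted in full for each, 67.2% of those of miR-n470b-5p in male brain. These folds are thus not 2 independent measurements. Among the others with reads on both sides, miR-n932-3p was at 7.69 ± 1.09. The muscle side is the average of white and red muscle. miR-n470a-5p had 0 reads in both white muscle libraries and miR-n932-3p in both red ones, so these folds are set in part by the fit. With libraries pooled, miR-n470a-5p was at 675 CPM in brain and 0.286 CPM in muscle, and miR-n932-3p at 21.3 and 0.0715 CPM. miR-n907-5p and miR-n246-3p had 0 reads in all 4 muscle libraries, and against a floor of 3 counts over that group brain was 112-fold and 40.1-fold higher.

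On the muscle side, 3 of these 20 had 0 reads in both brain libraries. With 3 counts over the 2 brain libraries as the floor, muscle was 24.2-fold higher for miR-n904-3p, 16.4-fold for miR-n941-5p and 11.2-fold for miR-n693-3p. miR-n797-5p was lower in brain by a log2 fold change of -6.00 ± 1.18 and miR-n941-3p by -4.89 ± 1.04. The calls for miR-n106-5p, miR-n579-5p and miR-n768-5p were lost without either brain library (adjusted p from 0.0625 to 0.327 by edgeR's quasi-likelihood test), and those for miR-n106-5p and miR-n579-5p also without female white muscle. For miR-n693-3p the call was lost without the male brain (adjusted p = 0.0525 by the same edgeR test).

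The other 24 peaked outside these tissues, and 10 of them were tested, of which 3 were higher in brain and 4 lower. Over all 365 names 30.1% were higher and 33.2% lower, so these counts are description. The 3 higher ones each had levels in both brain libraries above all 4 muscle libraries. These were miR-n456-5p with 4.46 ± 0.68 and an adjusted p of 0.000106 by edgeR's quasi-likelihood test, miR-n780-5p with 3.54 ± 0.88 and miR-n780-3p with 2.51 ± 0.74. miR-n780-5p entered the test through the brain libraries alone, so its call is description. Both miR-n456-5p and miR-n780-3p had 10 or more reads in 3 muscle libraries. The last lost its call without the male brain or without the male white muscle library (adjusted p = 0.108 and 0.0614 by edgeR's quasi-likelihood test).

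All of the 4 called lower in brain entered the test through muscle alone, so their calls are description. They were miR-n692-5p with -4.89 ± 1.24, miR-n529-3p with -3.65 ± 1.19, miR-n741-5p with -3.62 ± 1.20 and miR-n631-5p, which had 0 reads in both brains. For miR-n631-5p muscle was 5.80-fold higher against a floor of 3 counts over the brain libraries, on 41 muscle reads of which the 2 female libraries held 37. In single muscle libraries miR-n692-5p ran from 0.0868 to 58.6 CPM, so that its 4 libraries spread over a wider range than its fold change. Each of these 4 lost its call without at least 1 of the brain libraries (adjusted p from 0.0571 to 0.227 by edgeR's quasi-likelihood test), and miR-n741-5p also without female white muscle. Both fixed liver markers, miR-122-5p and miR-192-5p, were higher in white than in red muscle of the same sex. miR-122-5p was at 28.5 CPM (female) and 93.1 CPM (male) in white muscle, 1.51 CPM (female) and 0.434 CPM (male) in red muscle, and 7.87 CPM (female) and 10.8 CPM (male) in brain. miR-192-5p was at 18.4 CPM (female) and 484 CPM (male) in white muscle and 8.01 CPM (female) and 2.26 CPM (male) in red muscle. In brain miR-192-5p was at 6.69 CPM (female) and 0.295 CPM (male), below red muscle of the same sex, while miR-122-5p was above it. The part of liver RNA in these differences was not tested.

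**Figure D4:**
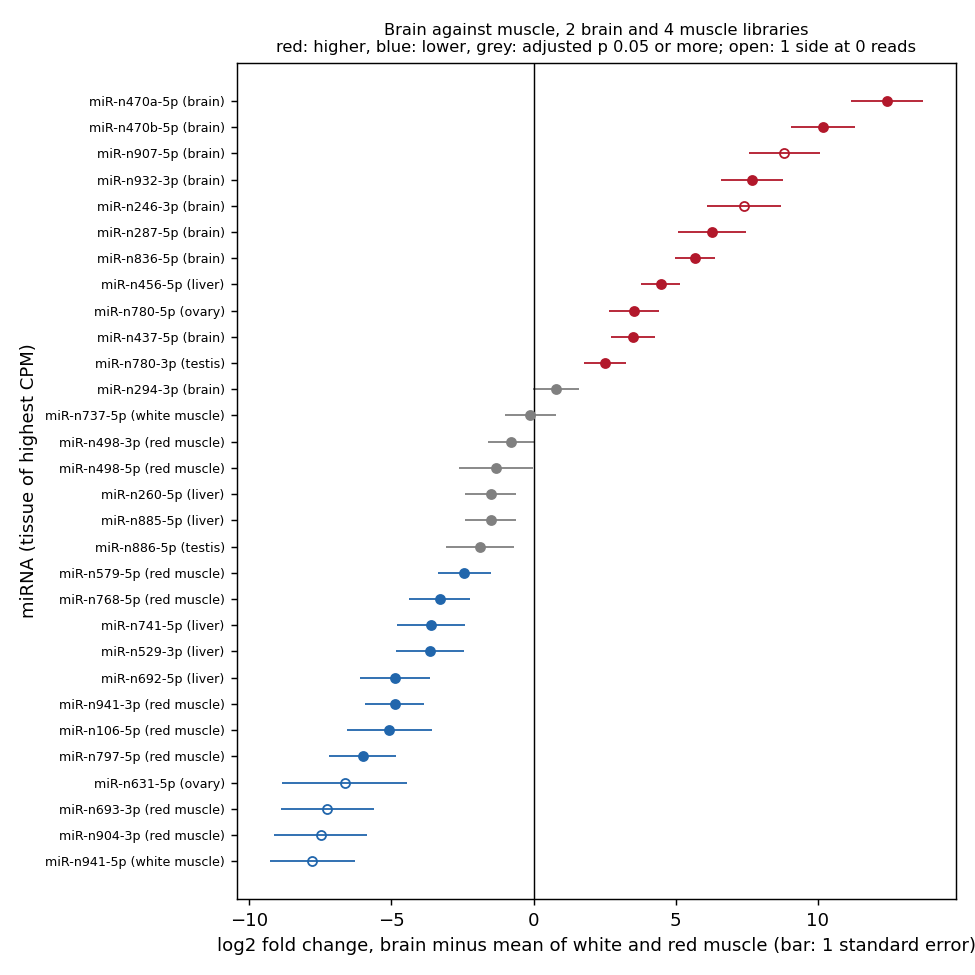
log2 fold change of brain over the average of the 2 skeletal muscles, with 1 standard error, for the 30 of 48 miRNAs tested in 6 libraries, each with its tissue of highest level. Red marks the 11 that were higher in brain, blue the 12 that were lower and grey the 7 that did not pass, and open circles have 0 reads on 1 side, so that their fold is set by the fit and is no bound.

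Between red and white muscle, 1 of the 30 was higher in red muscle by the same fit and 1 lower, while 28 did not pass, against 4.66% higher and 6.03% lower over the 365 names. Unadjusted p-values under 0.05 were found for 7 of the 30 and for 96 of all names. On simulated counts this comparison recovered 22.7% of changes of 2 on the log2 scale, a rate over entries of all kinds and not for the 30. miR-n692-5p was lower in red muscle by -6.44 ± 1.20 on the log2 scale (adjusted p = 0.00678 by edgeR's quasi-likelihood test), with 0.813 and 0.0868 CPM there against 15.5 and 58.6 CPM in white muscle. It entered the test through white muscle alone, so that this call, too, is description. miR-122-5p differed in the same direction, as given above. miR-n836-5p was higher by 3.74 ± 0.97 (adjusted p = 0.0353), with 6.10 and 3.78 CPM in red and 0.282 and 0.467 CPM in white muscle.

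Neither call held without 1 of the white muscle libraries, since miR-n692-5p then had too few reads to be tested and miR-n836-5p had an adjusted p of 0.284 or 0.218 by edgeR's quasi-likelihood test. With library totals alone as scaling, miR-n836-5p was at an adjusted p of 0.0504. For miR-n941-5p, the 2 white muscle libraries were both above the red ones, with -3.21 ± 0.95 on the log2 scale and an adjusted p of 0.0509 by the same test.

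Between the sexes none of the 30 passed. edgeR's quasi-likelihood test with tissue as a block gave 0 of 365 names (0%), and DESeq2 also gave 0 of the 30. An unadjusted p under 0.05 was found for 0 of the 30 and for 3 of all names. On simulated counts the same test recovered 38.5% of changes of 2 on the log2 scale and 98.5% of changes of 4. These rates are over entries of all kinds, simulated with a common spread and no tissue differences. They are not rates for the 30.

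Within a tissue, single libraries of the 2 sexes were apart in level for some of the 48. Among the 20 with at least 20 reads over both brain libraries, 17 were higher in the male library, with a median log2 difference of 0.91 after adding 0.5 CPM. Of all 315 names measured there, 61.0% were higher in the male, with a median of 0.23. In red muscle 13 of 21 were higher in the male library, against 35.3% of all names, and in white muscle 3 of 13, against 42.1%. Peaks in the male brain and male red muscle were themselves part of the rule, so these counts are description. miR-n470a-5p and miR-n470b-5p were 3.78 and 4.09 times as high in male as in female brain, while miR-n836-5p (1.11 times) and miR-n456-5p (0.946 times) were nearly level. The summed level of the brain markers (miR-124a, miR-9 and miR-128) was 58245 CPM in the male and 79512 CPM in the female library. Of the 6 fixed epithelial markers, only miR-200a-3p, miR-200b-3p and miR-205-5p were matched by name, and levels of the others are not given. These 3 were all higher in the male, with sums of 740 and 30.5 CPM. Their part in the differences was not tested.

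The partner arm was not used to choose a miRNA. The 48 came from 42 hairpins, and 31 of the 48 were 5p and 17 3p arms. Both arms were among the 48 in 6 hairpins, mir-n498, mir-n692, mir-n780, mir-n941, mir-n961 and mir-n987. For 12 of the 48 the partner peaked in a stage, and for 24 the partner stayed below 10 reads. The member had more reads than its partner in 38 cases and fewer in 10, and its median share of the hairpin's reads was 93.1%. A member needed at least 10 reads in a library and its partner did not. These counts and this share are thus in part fixed by the rule, and they are given as description. The most abundant were nearly all from 1 arm. In liver mir-n692 had 13621 reads of 5p and 20 of 3p, mir-n631 in ovary had 2646 and 0, and mir-n470a in male brain 8314 and 0.

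Some members were the minor arm of their hairpin. miR-n246-3p made up 9.17% of the reads of mir-n246, whose 5p arm fell just outside the rule. miR-n692-3p made up 0.267% of the reads of mir-n692, and miR-n941-5p 6.53% of those of mir-n941. At their peaks these 3 arms had 36, 20 and 65 reads, in that order.

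Arm shares were taken from libraries in which a hairpin had 20 or more reads, 5p and 3p together. Of 32 hairpins followed in at least 2 libraries, 16 had mostly 5p and 6 mostly 3p in each, by intervals that excluded equal shares. The 32 include both mir-n260 and mir-n885, which hold the same reads and fall in neither set. In 4 hairpins, mir-n780, mir-n682, mir-n498 and mir-n378, 5p prevailed in some libraries and 3p in others. Hairpins of the other names were not counted in this way. These counts are thus description and cannot be called particular to these miRNAs.

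Of these 4, mir-n780 could be followed in the most libraries. Its 5p arm made up all 216 reads at 2 dpf, and at the later stages 91.7%, 85.7%, 76.4% and 74.1% in order of age. In ovary the share was 88.0% (83.0 to 91.7), in eye 78.8% and in testis 53.0% (44.0 to 61.9). In male brain it was 15.5% (11.5 to 20.6), in female brain 26.2%, and in male and female red muscle 8.11% and 15.0%. Ovary and stages were thus 5p-rich, testis was balanced, and both brain and both red muscle libraries were 3p-rich. This hairpin is the origin of miR-n780-5p in the ovary group and miR-n780-3p in the testis group.

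mir-n682 had 62 reads of 5p and 3 of 3p in ovary, a 5p share of 95.4% (87.3 to 98.4). The stages had 2 and 93 reads at 3 dpf, 0 and 46 at 4 dpf, and 0 and 20 at 5 dpf. The ovary and the stages thus held opposite arms of this hairpin. miR-n682-5p met the minimum of reads in ovary alone, so the high 5p share there is in part fixed by the rule. This contrast is therefore description. mir-n498 had a 5p share of 30.3% (20.6 to 42.2) in female and 70.8% (61.8 to 78.4) in male red muscle, and mir-n378 had 8 reads of 5p and 35 of 3p at 5 dpf against 21 and 0 in male brain. miR-n378-5p likewise met the minimum of reads in male brain alone, so the contrast in mir-n378 is description too.

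In mir-n941 the 3p arm prevailed in all 4 muscle libraries, but not to the same extent. The 5p share was 29.4% (23.8 to 35.7) in male and 14.7% (10.4 to 20.5) in female white muscle, and 7.18% (4.25 to 11.9) in female and 0.888% (0.483 to 1.63) in male red muscle. Both white muscle shares were above both red muscle shares, although the intervals of the 2 female libraries overlapped, and the sexes differed beyond counting error within each muscle. mir-n987 was 3p-rich in ovary, with a 5p share of 21.9% (18.0 to 26.4), and had 14 reads of each arm at 2 dpf against 3 of 5p and 61 of 3p at 5 dpf.

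**Figure D5:**
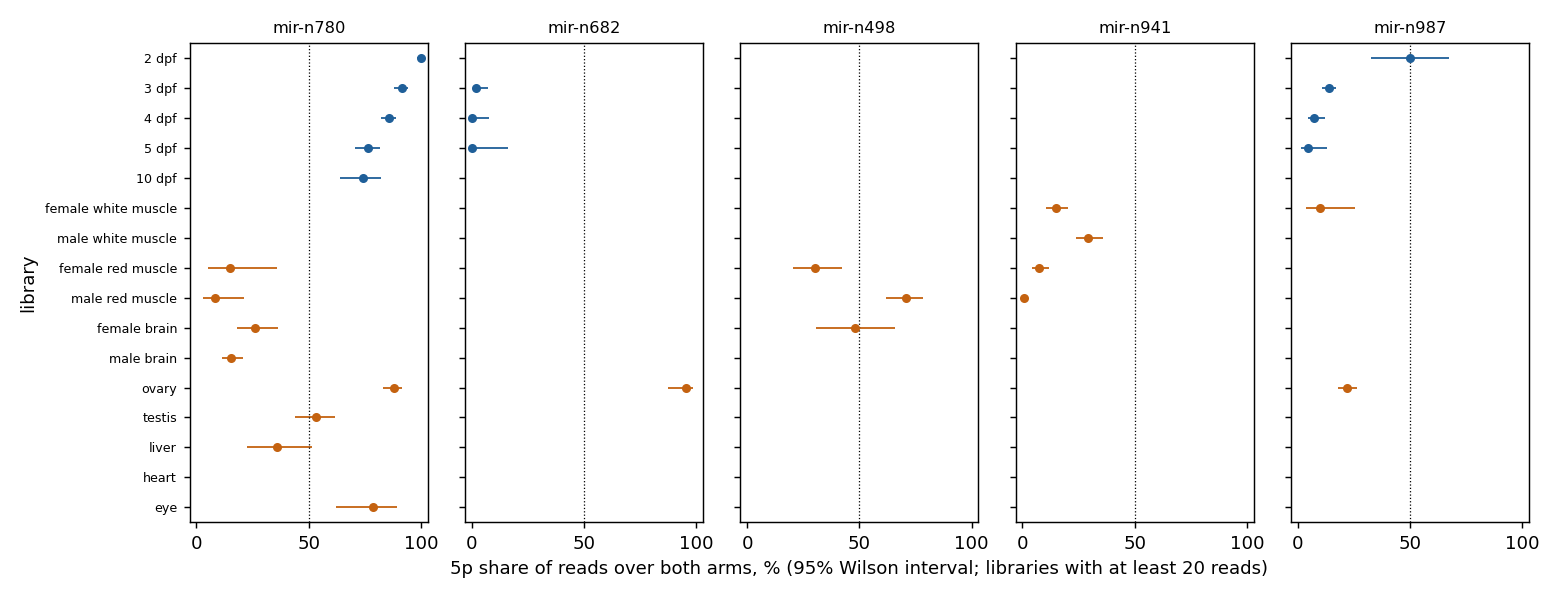
Share of the 5p arm in the reads of both arms, in percent with 95% Wilson intervals, for mir-n780, mir-n682, mir-n498, mir-n941 and mir-n987 in libraries with at least 20 reads (blue for stages, orange for adult tissues, dotted line at 50%). For mir-n780 the stages lie above 74%, ovary at 88.0% and male brain at 15.5%.

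Some miRNAs of the ovary group had reads in female and not in male white muscle, a pattern singled out after the values were seen. miR-n631-5p was at 5.93 CPM and miR-n987-3p at 7.62 CPM in the female library, and both were at 0 reads in the male. miR-n780-5p and miR-n893-3p, of the same group, had 0 reads in the female and 2 and 1 in the male library. The gonad marker miR-202-5p was at 4.23 CPM in female and 25.4 CPM in male white muscle, and at 0 reads in both red muscle libraries, and its part in these values was not tested.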

How the data were processed

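Small RNA of 16 tilapia libraries (TruSeq, Illumina GAIIx) had been counted by the authors per arm and locus. They deposited whole-number counts, where reads with several loci are repeated at each. The authors also deposited estimated counts, with such reads divided over the loci. Neither is normalized. The submitters' notes name DESeq, and the counting tool is not given in the sources used here. Sex was read from the file headers. Lines without a name (2) were left out, which left 734 entries. Whole-number totals ran from 1989045 to 27503766 reads.

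CPM, Poisson intervals and tau were computed from divided counts and arm shares from whole-number counts (Python 3.11.15, numpy 2.4.6, scipy 1.17.1, pandas 2.3.3, statsmodels 0.14.6, matplotlib 3.10.9). Whole-number counts of white muscle, red muscle and brain were tested in R 4.3.3 with edgeR 4.0.16 (TMM, glmQLFit, glmQLFTest, limma 3.58.1). An entry was tested if 2 or more of the 6 libraries had 10 or more reads, and a name was called if 1 of its loci had an adjusted p under 0.05. For a name with several loci the locus with the smallest p is given. Standard errors are the fold change over the square root of F, and are approximate. DESeq2 1.42.0, other scalings and filters, divided counts and left-out libraries were alternatives. On simulated counts with 200 changed entries, brain against muscle recovered 98.4%, 53.8% and 15.6% of log2 changes of 4, 2 and 1, and red against white muscle 93.8%, 22.7% and 3.08%. The changed entries were drawn from all that passed the filter, with a common spread and no other tissue differences. The rates are therefore not those of the n-named miRNAs.

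Named by rule were the 3 highest members of each adult library, the 5 strongest calls per test and direction, members with several loci or both arms in the list, those nearest the thresholds, and the 3 names most like the highest member. The other members are named to account for the list. Members, lists and tests were chosen with earlier results of these data known.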

Additional observations from a re-analysis of the deposited data

Results flagged for a closer look

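In 7 of the 48 miRNAs the female and male libraries differed in opposite directions in different tissues, by counting intervals that excluded equal levels. Such cases were not counted among the other names, so the 7 are description and cannot be called particular to these miRNAs. The size given for each is the difference between the log2 ratios of female over male in the tissues concerned, with 0.5 CPM added. Only 2 of the 7, miR-n741-5p and miR-n941-3p, had at least 20 reads over both sexes in each tissue concerned. miR-n741-5p was at 5.36 CPM in female and 1.17 CPM in male white muscle, but at 1.51 CPM in female and 4.08 CPM in male red muscle, a difference of 3. miR-n941-3p was at 45.7 and 36.4 CPM in white and at 19.5 and 96.9 CPM in red muscle, a difference of 2.61. Its female over male ratio in white muscle was 1.26, with a counting interval of 1.002 to 1.58 that barely excluded equal levels. Over all names measured, the median log2 difference of male minus female was -0.20 in white and -0.56 in red muscle.

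The other 5 rested on fewer than 20 reads in at least 1 tissue. miR-n692-5p had 55 female and 251 male reads in white muscle but 7 and 1 in red muscle (difference 3.04). For miR-n498-5p the female and male reads were 8 and 0 in white muscle and 13 and 1 in brain, against 20 and 80 in red muscle (3.86). miR-n886-5p had 32 and 7 reads in white and 10 and 2 in red muscle, against 0 and 9 in brain (4.03). miR-n470a-5p and miR-n470b-5p, which share reads, were higher in male brain but had 8 and 7 reads in female and 0 in male red muscle (3.43 and 3.42). Each value is 1 library, and the differences between tissues were not tested.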

How the results depend on the processing

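The median log2 fold change of all names in brain against muscle was -0.24 with TMM and 0.15 with library totals, and in red against white muscle 0.31 and 0.16. The count of miRNAs that met the rule was 53 with a minimum of 5 reads, 43 with 20, 46 with whole-number counts and between 43 and 48 with 1 of the 6 white muscle, red muscle and brain libraries left out. With TMM-scaled totals it was 63, of which 44 were shared, and miR-n106-5p, miR-n495-3p, miR-n780-5p and miR-n893-3p then peaked at 2 dpf and miR-n456-5p in female brain. In brain against muscle, leaving out 1 library gave 4 to 11 higher and 5 to 11 lower, and the lowest counts came without a brain library. With 12 alternatives for the 23 miRNAs called, 276 refits were possible and 22 lacked the reads to be tested. Of the other 254, 230 kept the call, 24 lost it and 0 changed direction, 18 of the losses being with a library left out. The call was lost by miR-n579-5p with DESeq2 (adjusted p = 0.0571), RLE factors (0.0578) and library totals (0.0681), and by miR-n907-5p with DESeq2 (0.0628), beside the 2 losses with sex as a replicate block (miR-n579-5p at 0.122 and miR-n768-5p at 0.0745, all by edgeR's quasi-likelihood test or DESeq2 as named). In red against white muscle, leaving out 1 library gave 0 to 2 higher and 0 to 2 lower. Library totals gave 0 higher, and DESeq2 and no filter each gave 2 lower. With sex as a replicate block, brain against muscle gave 11 higher and 10 lower and red against white muscle 1 and 1, and without tissue as a block the sexes gave 0 and 0. The female minus male deviations of the tissues were not shared (correlations -0.36, -0.14 and -0.04), so the libraries were not treated as pairs. A minimum of 50 reads left 20 hairpins followed in at least 2 libraries, and mir-n378 was no longer among those with both arms prevailing. Depth limits heart, testis, liver, ovary and 10 dpf most, where 3 reads are over 2 CPM.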
